A study of Mus musculus with 15 samples.

Results

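Glucose transport and glucose production in the mouse kidney were described through 10 genes: Slc5a1, Slc5a2, Slc2a1, Slc2a2, Pck1, G6pc, Fbp1, Pcx, Pklr and Hk2. They were taken by name as carriers and enzymes of renal glucose handling, with earlier results of these data known. Each was found through the RefSeq accession of its probe. All 10 were on the array, each with 1 probe, out of 20659 named genes. All 10 also passed the filter on dim probes, which left 16055 genes, although the Hk2 probe passed it with 5 of 15 arrays well above background.

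The kidney filters glucose and takes it back in the proximal tubule. Sodium-coupled carriers bring glucose in through the apical membrane, and facilitative carriers release it to the blood through the basolateral membrane. The same tubule cells make glucose from lactate, glutamine and glycerol, and so carry the gluconeogenic enzymes that the liver also uses.

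The RNA came from frozen whole kidney of male C57/BJ mice. At 6 weeks of age the left kidney was removed (uninephrectomy, UNX, called 1-kidney here) or handled and left in place (sham), and the mice then ate a high fat diet or low fat chow for 20 weeks. There were 4 low-fat sham arrays, 4 low-fat 1-kidney arrays, 3 high-fat sham arrays and 4 high-fat 1-kidney arrays, 1 mouse per array, while the labels speak of 6 mice per group. The labels name no allele or drug in any group, and a whole-kidney extract mixes all nephron segments.

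No spot was saturated, and the share well above background ran from 60.5% to 73.4% over the arrays. All 8 low-fat arrays were scanned on another day than all 7 high-fat arrays, so diet and scan day cannot be told apart. The low-fat sham arrays shared 1 slide and the low-fat 1-kidney arrays another, so surgery and slide cannot be told apart on that diet. The high-fat arrays lay on 2 slides (1 and 2), each with both kinds of surgery. Proximal tubule markers had array means between 5.26 and 5.77 on the normalised log2 scale in the 4 groups, and the phosphate carrier Slc34a1 lay between 6.98 and 7.60. Liver markers were unevenly present: the array mean of 12 markers ran from -1.54 to 0.02 in low-fat sham, -1.88 to 0.59 in low-fat 1-kidney mice, and reached at most -1.49 in either high-fat group. Low-fat sham replicate 1 and low-fat 1-kidney replicates 3 and 4 carried the highest signals of the liver secretory gene Ahsg, at 0.95, 1.29 and 1.54. Not all of the 12 markers were brighter on the low-fat diet: 4 had a higher mean on the high-fat diet in sham and 3 in 1-kidney mice. Mean Ttr was 2.04 in low-fat and 3.77 in high-fat sham mice, and 2.91 and 4.45 in the 1-kidney groups. Fga and Cyp2c29 were also higher on the high-fat diet in both kinds of mice.

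The start regions of 4 of the genes are shown. Of these, Pck1 and Slc5a1 passed for diet in both kinds of mice and Pklr in 1-kidney mice only. G6pc, a neighbour of Pck1 in the pathway, did not pass. Each run is RefSeq sequence of GRCm38.p6, 5′ to 3′ on the gene's strand, from 250 bases before the first base of the transcript to 50 after. Capitals mark matches to 3 motifs searched on both strands: ACGTCA, found in cyclic AMP response elements, GTTAAT, found in sites of the tubule and liver factor HNF1, and TATAAA, found shortly before many start sites.
Pck1, chr2:173152823-173153122, plus strand: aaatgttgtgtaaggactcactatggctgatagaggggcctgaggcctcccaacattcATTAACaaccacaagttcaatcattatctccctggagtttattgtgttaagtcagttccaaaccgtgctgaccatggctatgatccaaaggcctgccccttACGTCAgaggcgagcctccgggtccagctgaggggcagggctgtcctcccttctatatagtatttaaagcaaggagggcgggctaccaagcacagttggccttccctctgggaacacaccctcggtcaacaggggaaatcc
Slc5a1, chr5:33103969-33104268, plus strand: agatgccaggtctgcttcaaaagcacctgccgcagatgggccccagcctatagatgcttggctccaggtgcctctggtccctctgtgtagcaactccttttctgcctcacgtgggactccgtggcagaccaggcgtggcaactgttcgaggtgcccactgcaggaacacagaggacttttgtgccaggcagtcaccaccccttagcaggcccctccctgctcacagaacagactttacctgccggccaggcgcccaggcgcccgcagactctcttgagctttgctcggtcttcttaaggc
Pklr, chr3:89136373-89136672, plus strand: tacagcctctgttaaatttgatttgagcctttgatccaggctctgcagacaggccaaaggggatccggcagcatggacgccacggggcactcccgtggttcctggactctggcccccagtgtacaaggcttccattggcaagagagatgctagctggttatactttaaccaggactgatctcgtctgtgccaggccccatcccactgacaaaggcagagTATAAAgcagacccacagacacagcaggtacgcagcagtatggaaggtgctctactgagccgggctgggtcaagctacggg
G6pc, chr11:101367466-101367765, plus strand: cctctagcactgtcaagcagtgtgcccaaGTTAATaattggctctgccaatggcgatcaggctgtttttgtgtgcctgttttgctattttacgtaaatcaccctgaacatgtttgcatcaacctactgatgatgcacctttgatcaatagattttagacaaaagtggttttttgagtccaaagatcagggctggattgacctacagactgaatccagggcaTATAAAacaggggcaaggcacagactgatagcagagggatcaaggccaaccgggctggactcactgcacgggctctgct

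The Pck1 window held ACGTCA 91 bases upstream of the start and GTTAAT on the opposite strand, printed as ATTAAC, 192 bases upstream. G6pc held GTTAAT 221 bases and TATAAA 29 bases upstream. Pklr held TATAAA 31 bases upstream in the window shown, which belongs to 1 of its 2 start sites, and Slc5a1 held none of the 3. Among 32851 such windows of 300 bases, 7.51% held ACGTCA, 7.10% held GTTAAT and 13.6% held TATAAA. Windows were found for 9 of the 10 genes. Of the others, Hk2 had ACGTCA 51 bases upstream and Slc2a1 had TATAAA 28 bases downstream of the start. A match is a run of letters and was not tested as a binding site.

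The plot of signals by array shows all 10 genes. Values below are log2 signals after subtraction of each array's 75th percentile, a scale on which a difference of 1 is a doubling, and they are compared only within a gene, since probes differ in brightness.

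**Figure D1:**
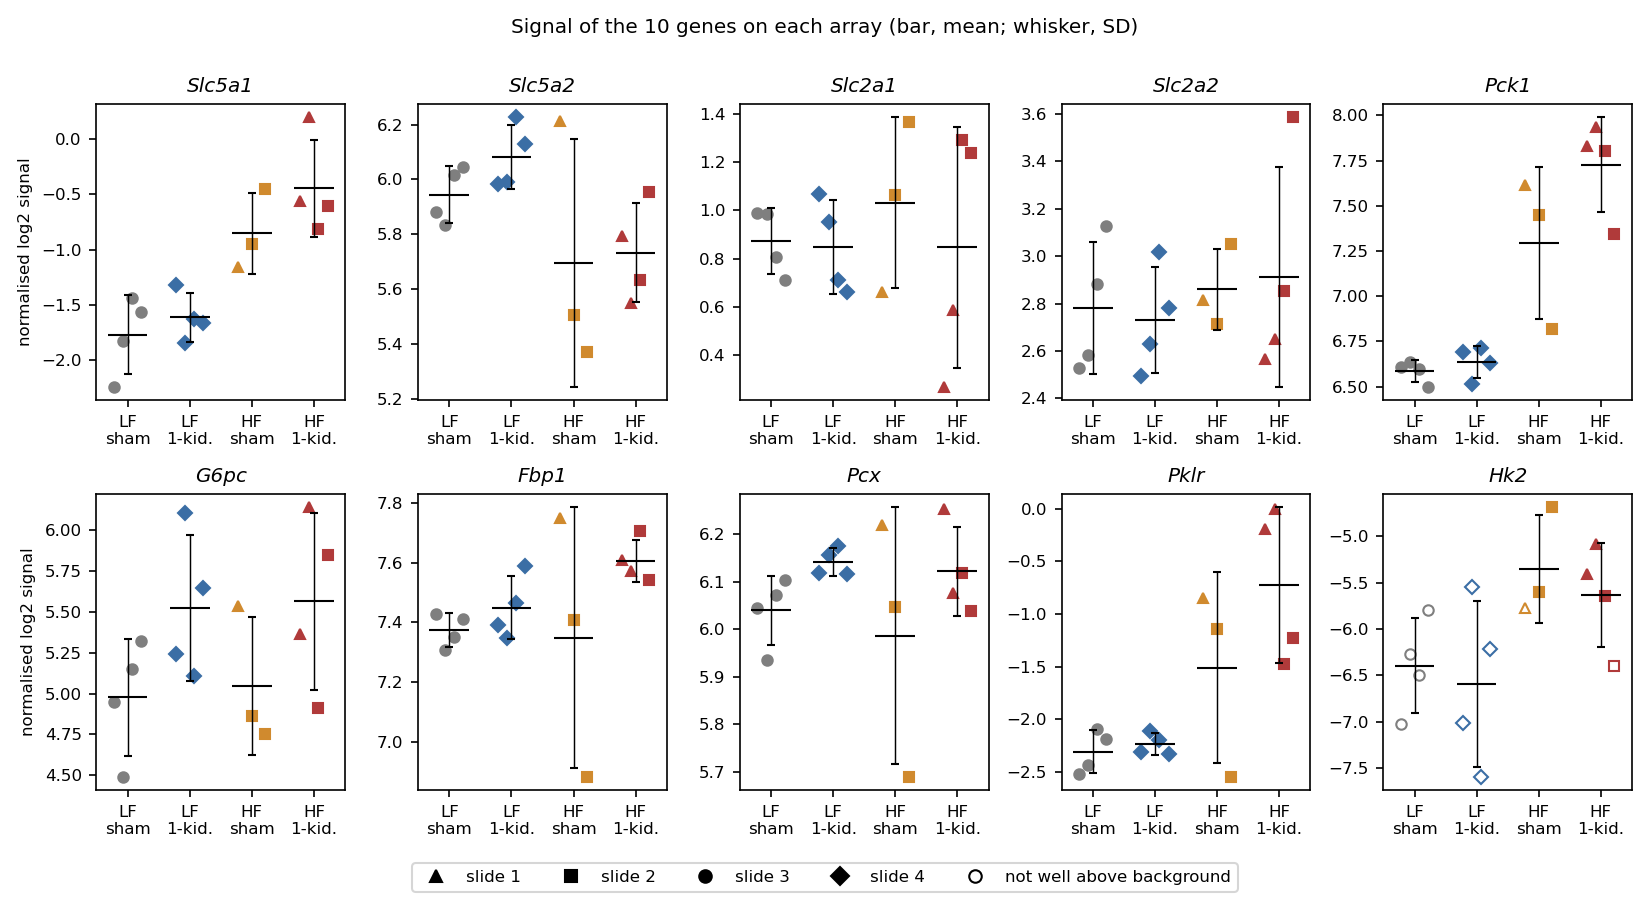
Normalised log2 signal (y axis) of the 10 genes on the 15 arrays, by group (LF, low-fat; HF, high-fat; 1-kid., 1-kidney). Points are arrays, marker shape is the slide, open points are not well above background, bars are means and whiskers SD. For Pck1 and Slc5a1 every high-fat point lies above every low-fat point of the same surgery. The same held for 11.01% of all genes in sham and 11.39% in 1-kidney mice.

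Compared with low-fat mice, high-fat mice had higher Pck1 and Slc5a1 signals, whether they had been sham operated or had lost a kidney. Diet cannot be told apart from scan day in this difference, and with slide as a random block neither gene passed. Pklr was also higher on the high-fat diet in 1-kidney mice. The other apical carrier, Slc5a2, both basolateral carriers and the enzymes G6pc, Fbp1 and Pcx did not pass the test for diet. A gene passed at an adjusted p under 0.05 (limma, Benjamini-Hochberg over all 16055 genes). In sham mice 2 of the 10 passed, both higher, where 13.9% of all genes passed and 6.48% passed as higher. In 1-kidney mice 3 of the 10 passed, all higher, where 14.2% of all genes passed and 7.67% passed as higher. The median difference of the 10 genes was 0.12 in sham and 0.17 in 1-kidney mice, and that of all genes was -0.02 and -0.01. These counts and medians of the 10 include Hk2, which entered the fit through the high-fat arrays alone and did not pass. In whole-kidney RNA, more cells of a type and more RNA per cell cannot be told apart.

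Slc5a1 encodes SGLT1, the sodium-glucose cotransporter of the late proximal tubule. Its signals were -2.24, -1.83, -1.44 and -1.56 in low-fat sham mice and -1.32, -1.85, -1.62 and -1.66 in low-fat 1-kidney mice. They were -1.16, -0.95 and -0.45 in high-fat sham mice and -0.57, 0.19, -0.81 and -0.60 in high-fat 1-kidney mice. Within each kind of surgery the high-fat values lay above the low-fat values, as for 11.01% of all genes in sham and 11.39% in 1-kidney mice. The sham and 1-kidney values overlapped on either diet. The diet difference was 0.91 on the log2 scale in sham mice (SE 0.25; 1.88-fold; adjusted p = 0.0303) and 1.17 in 1-kidney mice (SE 0.23; 2.24-fold; adjusted p = 0.00606). In sham mice the call was lost without low-fat replicate 1 (0.76, adjusted p = 0.0808) or 2 (0.89, adjusted p = 0.0657), and without high-fat replicate 2 (0.96, adjusted p = 0.0653) or 3 (0.71, adjusted p = 0.0931).

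Slc5a2 encodes SGLT2, the carrier of the early proximal tubule that takes up most of the filtered glucose. Its signals were 5.88, 5.83, 6.02 and 6.05 in low-fat sham and 5.98, 5.99, 6.23 and 6.13 in low-fat 1-kidney mice. In high-fat sham mice they were 6.21, 5.51 and 5.37, and in high-fat 1-kidney mice 5.79, 5.55, 5.63 and 5.96. All 4 high-fat 1-kidney arrays lay below all 4 low-fat 1-kidney arrays, as for 11.1% of all genes. High-fat sham replicate 1, in contrast, lay above every low-fat sham array. The difference was -0.35 in 1-kidney mice (95% interval -0.70 to 0.00; adjusted p = 0.173) and -0.25 in sham mice (-0.63 to 0.13; adjusted p = 0.380). The difference in sham mice moved with single high-fat arrays: it was -0.51 without replicate 1 (adjusted p = 0.0322), -0.15 without replicate 2 (adjusted p = 0.683) and -0.09 without replicate 3 (adjusted p = 0.781).

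Slc2a2 encodes GLUT2, the basolateral carrier of the early proximal tubule, and Slc2a1 encodes GLUT1, the basolateral carrier of later segments. Slc2a2 ran from 2.53 to 3.13 in low-fat sham, 2.50 to 3.02 in low-fat 1-kidney, 2.72 to 3.05 in high-fat sham and 2.57 to 3.59 in high-fat 1-kidney mice. Its diet difference was 0.08 in sham mice (95% interval -0.41 to 0.57) and 0.18 in 1-kidney mice (-0.27 to 0.64). Slc2a1 ran from 0.71 to 0.99 in low-fat sham and 0.66 to 1.07 in low-fat 1-kidney mice. On the high-fat diet it was 0.66, 1.06 and 1.37 in sham and 0.27, 0.59, 1.29 and 1.24 in 1-kidney mice, a wider spread than on the low-fat diet. Its diet difference was 0.16 in sham mice (-0.35 to 0.67) and 0.00 in 1-kidney mice (-0.47 to 0.47). All groups overlapped for both basolateral carriers.

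Pck1 encodes the cytosolic phosphoenolpyruvate carboxykinase, the enzyme that commits oxaloacetate to glucose production. The low-fat arrays were tight, with signals of 6.61, 6.64, 6.60 and 6.50 in sham mice and 6.69, 6.52, 6.71 and 6.63 in 1-kidney mice. High-fat sham arrays read 7.61, 7.45 and 6.82, and high-fat 1-kidney arrays 7.83, 7.93, 7.80 and 7.34. Every high-fat array lay above every low-fat array of the same surgery, as for 11.01% of all genes in sham and 11.39% in 1-kidney mice. High-fat sham replicate 3 was the nearest to the low-fat arrays. The diet difference was 0.71 in sham mice (SE 0.18; 1.63-fold; adjusted p = 0.0204) and 1.09 in 1-kidney mice (SE 0.17; 2.13-fold; adjusted p = 0.00158). The order of the group means was low-fat sham (6.59 ± 0.06, SD), low-fat 1-kidney (6.64 ± 0.09), high-fat sham (7.29 ± 0.42) and high-fat 1-kidney (7.73 ± 0.26). Neither step between surgeries on 1 diet passed, and the middle step, between groups that differ in both diet and surgery, was not tested. In sham mice the call was lost without high-fat replicate 1 (0.55, adjusted p = 0.0678) or 2 (0.63, adjusted p = 0.0761), while in 1-kidney mice it was kept whichever array was left out.

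The enzymes before and after Pck1 in the pathway did not pass. Pcx (pyruvate carboxylase, which makes the oxaloacetate) had diet differences of -0.05 in sham mice (95% interval -0.32 to 0.21) and -0.02 in 1-kidney mice (-0.27 to 0.23). Fbp1 (fructose-1,6-bisphosphatase) had differences of -0.03 (-0.37 to 0.32) and 0.16 (-0.16 to 0.48). G6pc, the glucose-6-phosphatase subunit that frees glucose in the last step, had differences of 0.07 (-0.61 to 0.75) and 0.04 (-0.59 to 0.67). The upper bounds for Pcx and Fbp1 lay below the measured difference of Pck1 in the same mice, and that of G6pc did so in 1-kidney mice only.

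G6pc varied widely within groups. Its signals were 4.95, 4.49, 5.15 and 5.32 in low-fat sham, 5.24, 6.10, 5.11 and 5.65 in low-fat 1-kidney, 5.53, 4.86 and 4.75 in high-fat sham, and 5.36, 6.14, 4.91 and 5.85 in high-fat 1-kidney mice. Its SD was 0.36 to 0.54 in the 4 groups, above those of Pck1, Pcx and Fbp1 in all but high-fat sham mice. Pcx and Fbp1 had SDs of 0.03 to 0.11 in the other groups but 0.27 and 0.44 in high-fat sham mice, where replicate 3 read 5.69 for Pcx and 6.88 for Fbp1.

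Pklr encodes the pyruvate kinase of liver, red cells and kidney, which closes glycolysis and so opposes Pck1. Its signals were -2.51, -2.44, -2.09 and -2.18 in low-fat sham and -2.31, -2.11, -2.19 and -2.32 in low-fat 1-kidney mice. They were -0.84, -1.14 and -2.54 in high-fat sham and -0.19, 0.00, -1.48 and -1.23 in high-fat 1-kidney mice. All 4 high-fat 1-kidney arrays lay above all 4 low-fat 1-kidney arrays, as for 11.39% of all genes. Of the 3 high-fat sham arrays, 2 lay above all low-fat sham arrays and replicate 3 lay below them all. The difference was 1.51 in 1-kidney mice (SE 0.36; 2.85-fold; adjusted p = 0.0140). In sham mice it was 0.80 (SE 0.39; 95% interval -0.03 to 1.63; adjusted p = 0.185), and here too single high-fat arrays moved it. It was 0.46 without replicate 1 (adjusted p = 0.491), 0.61 without replicate 2 (adjusted p = 0.418) and 1.31 without replicate 3 (adjusted p = 0.0228).

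Hk2 encodes hexokinase 2, which traps glucose in the cell and is a minor form in the healthy tubule. Its probe was not well above background on any of the 8 low-fat arrays, but was so on 2 of 3 high-fat sham and 3 of 4 high-fat 1-kidney arrays. It entered the fit through the high-fat arrays alone, so its values are given as a description with no fold or test. The measured means were -6.39 in low-fat sham and -5.35 in high-fat sham mice, and -6.59 and -5.63 in the 1-kidney groups.

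Counted by overlap, Slc5a1 and Pck1 lay above the low-fat group in sham mice, where 11.01% of all genes did. The Hk2 readings did not overlap there either, but the lowest high-fat value, -5.77, and the highest low-fat value, -5.79, were both not well above background. Slc5a1, Pck1 and Pklr lay above in 1-kidney mice, where 11.39% of all genes did. Slc5a2 lay below the low-fat group there, as did 11.1% of all genes. The plot of group differences shows these intervals beside those for surgery.

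**Figure D2:**
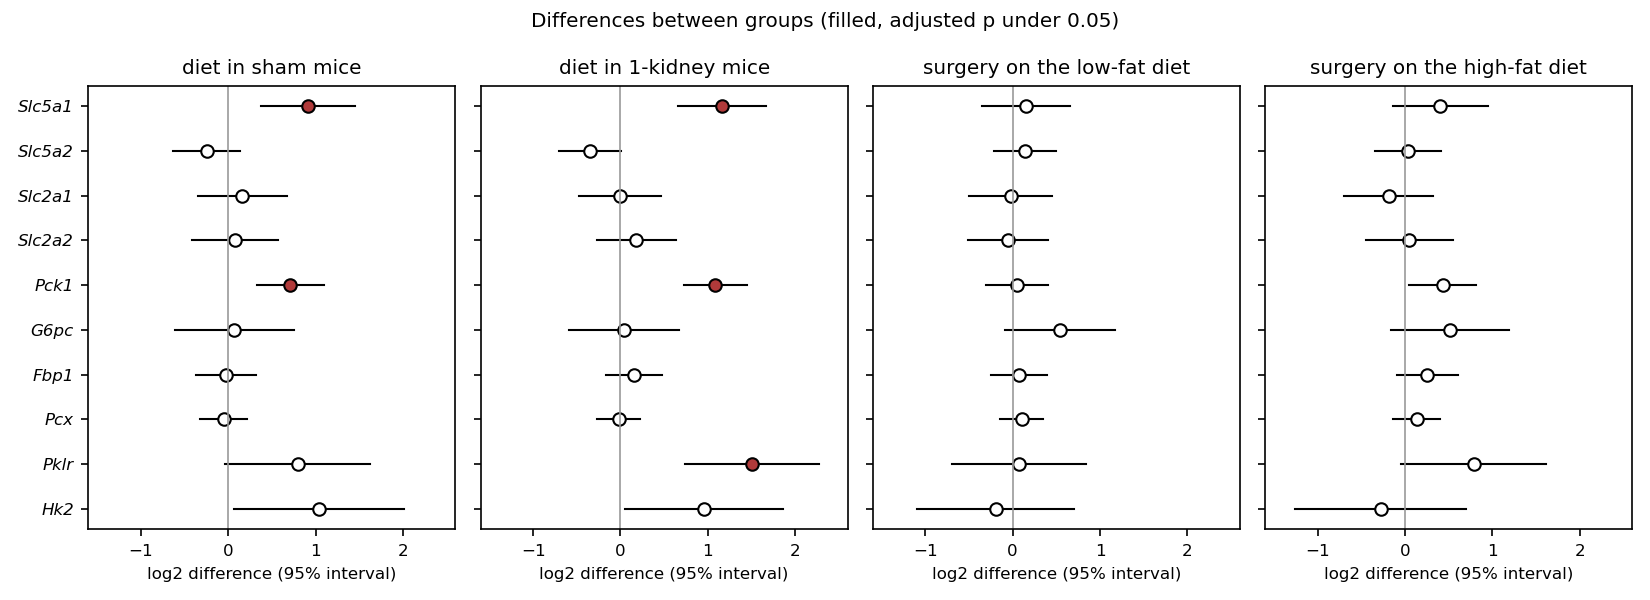
Log2 difference (x axis) of each gene with its 95% interval, for diet (high-fat minus low-fat) in sham and 1-kidney mice and for surgery (1-kidney minus sham) on each diet. Filled points passed at an adjusted p under 0.05: Slc5a1 and Pck1 for diet in both kinds of mice, Pklr for diet in 1-kidney mice, and none for surgery. The Hk2 intervals are drawn as a description only, since its probe was not well above background on any low-fat array.

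The high-fat arrays of slides 1 and 2 differed over many genes: 31.0% of the genes tested passed between both slides with surgery in the fit. Pklr was 1.15 higher on slide 1 (adjusted p = 0.00469), with signals of -0.84 to 0.00 there and -2.54 to -1.14 on slide 2. Slc2a1 was lower on slide 1 (-0.72, adjusted p = 0.00248), with signals of 0.27 to 0.66 there and 1.06 to 1.37 on slide 2. The other 8 genes did not pass between slides. Pck1 was 0.38 higher on slide 1 (adjusted p = 0.0680), and Slc5a1 differed by 0.13 (adjusted p = 0.743).

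The diet differences were therefore also taken for each high-fat slide against the same low-fat arrays. Pck1 was 1.03 (slide 1, 1 array) and 0.55 (slide 2, 2 arrays) above low-fat in sham mice, and 1.24 and 0.93 (2 arrays each) in 1-kidney mice. Slc5a1 was 0.61 and 1.07 above low-fat in sham mice, and 1.43 and 0.91 in 1-kidney mice. Pklr was 1.46 and 0.46 above low-fat in sham mice, and 2.14 and 0.88 in 1-kidney mice. Each of the 3 genes was thus above low-fat on both slides, and Pklr by more on slide 1. Slc5a2 was 0.27 (slide 1) and -0.51 (slide 2) against low-fat in sham mice, opposite in sign, and -0.41 and -0.29 in 1-kidney mice. Slc2a1 was -0.42 on slide 1 and 0.42 on slide 2 in 1-kidney mice.

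With slides 1 and 2 as a fixed block, 3 of the 10 genes passed in sham mice and 3 in 1-kidney mice, all higher, where 13.2% and 13.6% of all genes passed as higher. These were Slc5a1, Pck1 and Pklr in both, with Pklr at 0.99 in sham mice (adjusted p = 0.0125). With slide as a random block over all 4 slides, 1 correlation, 0.406, was used for arrays of a slide. Each low-fat slide held only 1 group, so a shift of such a slide cannot be told apart from its group. In this fit none of the 10 passed, and 0.0872% and 0.162% of all genes did. Pck1 then had an adjusted p of 0.201 in sham and 0.0928 in 1-kidney mice. Slc5a1 had 0.315 and 0.233, and Pklr had 0.384 and 0.191.

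**Figure D3:**
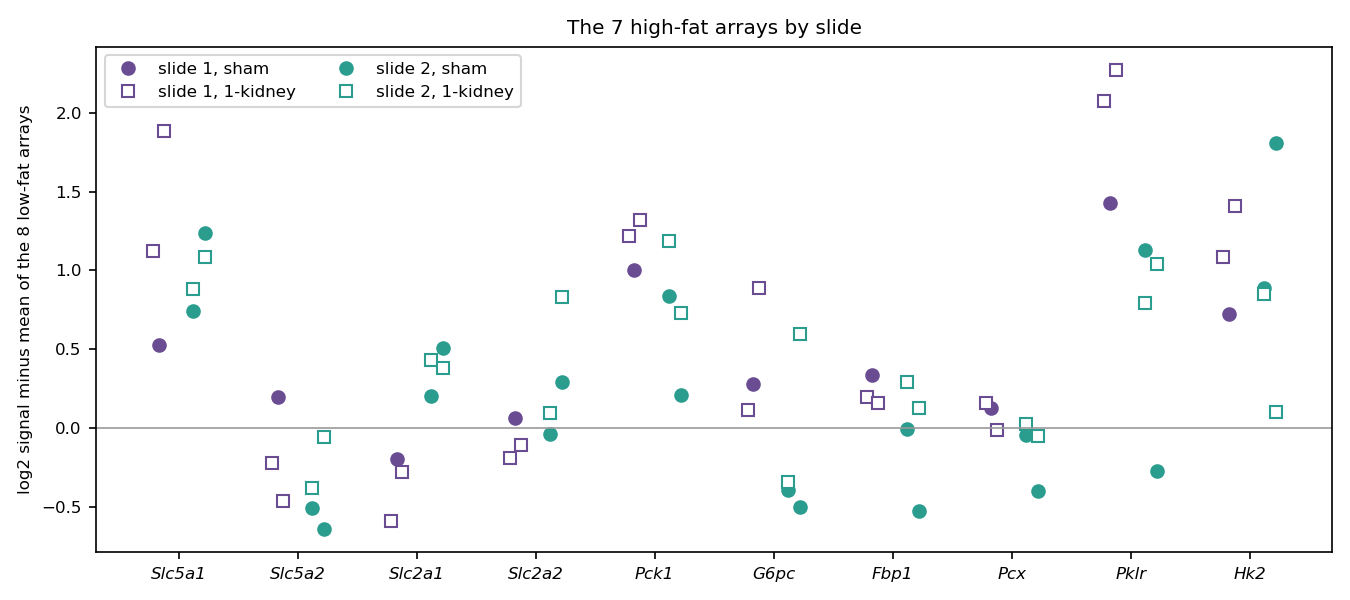
Log2 signal of the 7 high-fat arrays minus the mean of the 8 low-fat arrays (y axis) for each gene, by slide (colour) and surgery (filled, sham; open, 1-kidney). All 7 points of Slc5a1 and Pck1 lie above 0 on both slides, while Slc2a1 lies below 0 on slide 1 and above it on slide 2.

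High-fat sham replicate 3, the array with the brightest 75th percentile, read lowest of all 15 for Slc5a2, Fbp1, Pcx and Pklr and highest for Slc2a1 and Hk2. After quantile normalization it was lowest of all 15 for none of the 10 genes, and after cyclic loess for Fbp1 only. Among the 7 high-fat arrays it was still lowest for Pklr after quantile normalization, and for Pck1, Fbp1 and Pklr after cyclic loess. It stayed highest for Slc2a1 and Hk2 under both. High-fat 1-kidney replicate 2 was highest of all 15 for Slc5a1, Pck1, G6pc and Pklr under each of these normalizations. The array with the dimmest 75th percentile was in the high-fat sham group too, replicate 1. Its 75th percentile was 9.39 on the log2 scale, and that of replicate 3 was 11.68. Replicate 1 read highest of all 15 for Fbp1, but not after quantile normalization or cyclic loess.

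The liver markers bear on genes that the liver also expresses. Without the 3 low-fat arrays highest in Ahsg, the Pck1 difference was 1.12 in 1-kidney mice (adjusted p = 0.0360) and 0.72 in sham mice (adjusted p = 0.0879). Slc5a1 then differed by 1.13 (adjusted p = 0.0694) and 0.76 (adjusted p = 0.139) and Pklr by 1.48 (adjusted p = 0.132) and 0.73 (adjusted p = 0.383), in the same order. The differences of Pck1 and Pklr lay within 0.1 of those on all arrays, while that of Slc5a1 in sham mice went from 0.91 to 0.76. Fewer arrays entered this fit, and the part of liver RNA in the diet differences was not tested.

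None of the 10 genes passed between 1-kidney and sham mice on either diet. On the low-fat diet 0.00623% of all genes passed, which is 1 gene, and on the high-fat diet 0% passed (limma), while 519 and 747 genes had an unadjusted p under 0.05. G6pc had the largest difference on the low-fat diet, 0.55 (95% interval -0.08 to 1.17; unadjusted p = 0.0836), and was 0.52 on the high-fat diet (-0.16 to 1.20; unadjusted p = 0.124). Its groups overlapped on both diets. Pcx was 0.10 higher in low-fat 1-kidney than in low-fat sham mice without overlap (95% interval -0.15 to 0.35), where 4.57% of all genes did not overlap.

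On the high-fat diet, Pklr differed most between surgeries (0.79; 95% interval -0.04 to 1.62; unadjusted p = 0.0616), followed by G6pc and Pck1 (0.43; 0.05 to 0.82; unadjusted p = 0.0303). All had adjusted p-values of 1.00. Within slides, Pck1 was 0.27 higher in 1-kidney than in sham mice on slide 1 and 0.44 on slide 2, and Pklr 0.75 and 0.49. Arrays of the same replicate number were also set against each other here as 3 pairs, of which pairs 1 and 3 also share a slide. The labels give only the replicate numbers and name no pairs. Pck1 was higher in the 1-kidney mouse of each pair, by 0.21, 0.49 and 0.98, and so was Pklr, by 0.65, 1.14 and 1.07. High-fat 1-kidney replicate 4 had no partner. Its Pck1 signal, 7.34, lay below sham replicates 1 and 2 (7.61 and 7.45) and above replicate 3 (6.82). Its Pklr signal, -1.23, lay below sham replicates 1 and 2 (-0.84 and -1.14) and above replicate 3 (-2.54). With these numbers as a block on the 7 high-fat arrays, Pck1 differed by 0.56 (adjusted p = 0.983) and Pklr by 0.95 (adjusted p = 0.925), and none of the 10 genes passed. Slc5a1 was 0.97 on slide 1 and -0.01 on slide 2. Slc5a2 was -0.54 on slide 1 and 0.36 on slide 2, opposite in sign.

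The interaction asks whether the diet difference depended on the missing kidney, and 0% of all genes passed it, with 219 at an unadjusted p under 0.05. Its largest value among the 10 genes was that of Pklr, 0.71 (95% interval -0.42 to 1.84), followed by Pck1, 0.38 (-0.15 to 0.90). The call of Pklr in 1-kidney mice alone is therefore not a shown difference between the surgeries.

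Further genes of glucose metabolism were read from 6 lists with 89 measured genes in all. For diet, 7 passed as higher and 4 as lower in sham mice, and 10 and 3 in 1-kidney mice, and 8 genes passed in both, counts that include Slc5a4a, whose call is a description only. The shares passing, 11 and 13 of 89 genes, stood beside 13.9% and 14.2% of all genes. None of the 89 passed for surgery on either diet or for the interaction, and none passed for diet with slide as a random block (lowest adjusted p = 0.111 in sham and 0.107 in 1-kidney mice). The directions below held under all alternatives run, with the exception of Slc5a4a.

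Among 12 measured carriers beyond the members, 2 passed as higher on the high-fat diet in both kinds of mice. Of these, Slc5a10 rose. Slc5a10 (SGLT5, an apical fructose and mannose carrier of the kidney) went from 5.02 ± 0.10 (SD, n = 4) to 5.49 ± 0.22 (n = 3) in sham mice, a difference of 0.47 (adjusted p = 0.0464). In 1-kidney mice it went from 5.22 ± 0.20 to 6.04 ± 0.16 (n = 4 each), a difference of 0.82 (adjusted p = 0.00220). Slc5a4a, of the SGLT3 family, was the other. Its probe stood well above background on all 7 high-fat arrays, on 0 of 4 low-fat sham and on 1 of 4 low-fat 1-kidney arrays, so it passed the dim-probe filter mainly through the high-fat arrays. Its high-fat sham mean, -5.92, lay below the floor of the low-fat sham arrays, -5.64, the mean of the lowest signals well above background there, and no fold or p is given. With another background correction (normexp) its differences were -0.07 and 0.19.

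Of 14 measured gluconeogenic enzymes beyond the members, Pck2 alone passed, in both kinds of mice. Pck2 is the mitochondrial form of phosphoenolpyruvate carboxykinase, and its differences were 1.04 (adjusted p = 0.00219) and 0.82 (adjusted p = 0.00359). Its probe was dim, at -5.01 ± 0.16 in low-fat sham and -3.97 ± 0.18 in high-fat sham mice, and normexp gave differences of 0.18 and 0.31. The list's median difference was 0.00 in sham and 0.05 in 1-kidney mice. Of 16 measured glycolytic enzymes, Pfkm (muscle-type phosphofructokinase) rose in both (0.65, adjusted p = 0.0138; and 0.45, adjusted p = 0.0447). In sham mice Aldoa (aldolase A) fell by 0.64 (adjusted p = 0.0173) and Ldha (lactate dehydrogenase A) fell by 0.40 (adjusted p = 0.0496; -0.23 with all probes averaged).

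Substrate supply, with 14 genes, had list medians of 0.28 in sham and 0.30 in 1-kidney mice. Tkfc, the triokinase that brings fructose-derived glyceraldehyde into the pathway, rose by 0.96 in sham mice (adjusted p = 0.0420) and 1.19 in 1-kidney mice (adjusted p = 0.0111). In 1-kidney mice Gpt2 (mitochondrial alanine transaminase) rose by 0.59 and Glud1 (glutamate dehydrogenase) by 0.45, with adjusted p of 0.00784 and 0.0237. The lactate carrier Slc5a12 fell by 0.70 there (adjusted p = 0.0282).

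Pyruvate entry and oxidation, with 13 genes, had list medians of -0.01 and -0.10. Pdk1, a kinase that switches pyruvate dehydrogenase off, rose by 0.88 in sham (adjusted p = 0.00614) and 1.06 in 1-kidney mice (adjusted p = 0.00148). Pdha1, a subunit of the dehydrogenase itself, rose by 0.57 (adjusted p = 0.0385) and 0.53 (adjusted p = 0.0368), and was 0.34 higher in sham mice without high-fat sham replicate 3.

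The 20 regulators of gluconeogenic genes had negative medians, -0.26 and -0.19. Crtc2, the coactivator of CREB at cyclic AMP response elements, fell by 0.85 in sham (adjusted p = 0.00312) and 0.72 in 1-kidney mice (adjusted p = 0.00367). With all its probes averaged, the differences were -0.44 and -0.11. Ppara, a fatty acid receptor, fell by 0.41 in sham mice (adjusted p = 0.0377; -0.10 with all probes averaged). In 1-kidney mice Nr3c1, the glucocorticoid receptor, fell by 0.41 (adjusted p = 0.0463; -0.19 with normexp and -0.64 with all probes averaged), and Cebpa, a transcription factor of liver and fat, rose by 0.99 (adjusted p = 0.0250).

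**Figure D4:**
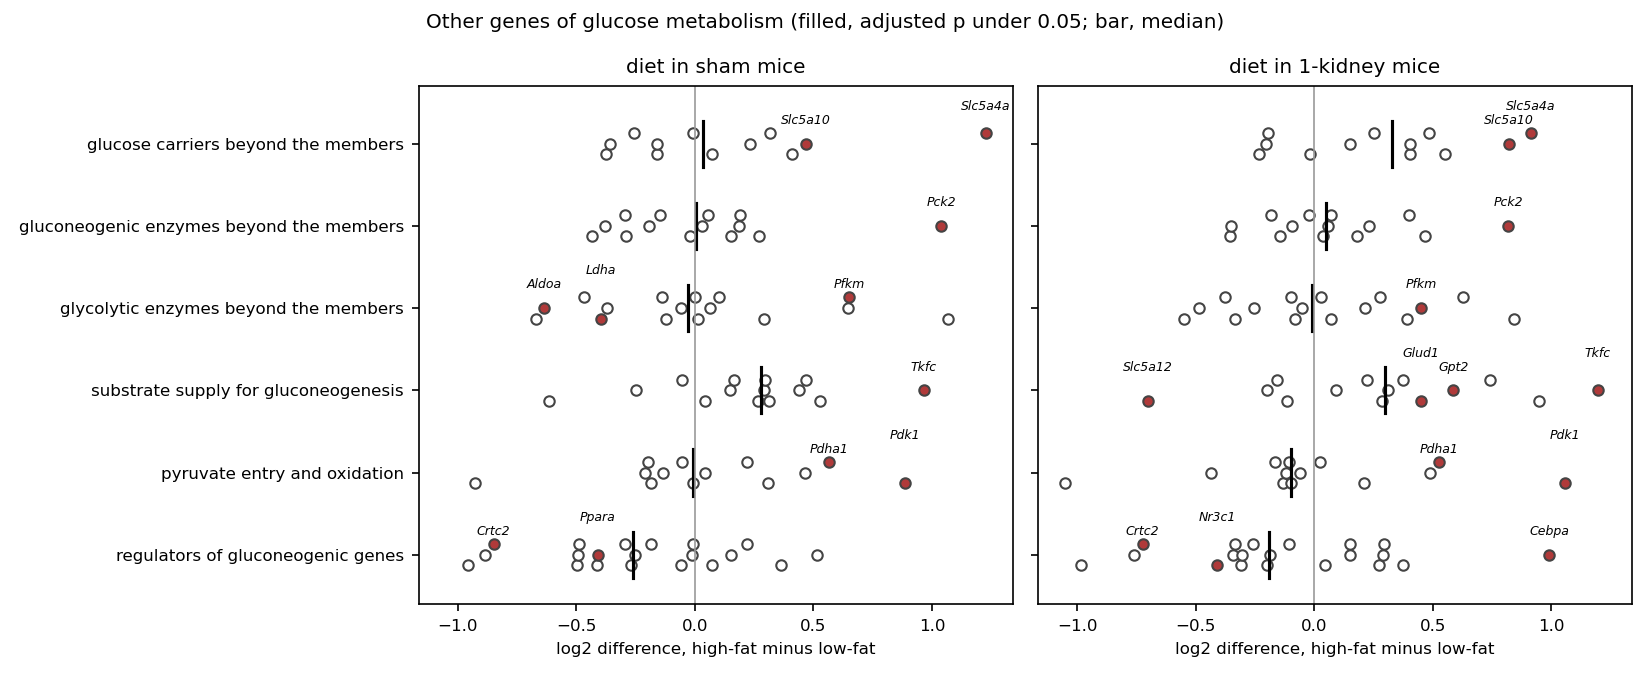
Log2 difference between diets (x axis, high-fat minus low-fat) of the 89 other genes by list, in sham and 1-kidney mice; points are genes, filled where the adjusted p was under 0.05, and black bars are list medians. Pck2, Pdk1, Tkfc and Slc5a10 lie to the right in both panels and Crtc2 to the left. Slc5a4a is also drawn to the right, but as a description only, because its probe passed the dim-probe filter mainly through the high-fat arrays.

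Markers of other cells were set beside these lists. Of 12 proximal tubule markers, the dicarboxylate carrier Slc13a3 passed, 0.60 higher on the high-fat diet in sham (adjusted p = 0.0335) and in 1-kidney mice (adjusted p = 0.0249), and the list medians were 0.03 and -0.02. None of 8 loop and distal or 6 glomerular markers passed. Of 5 measured blood cell markers 2 passed as lower in both kinds of mice, and 2 others had positive differences in both. In sham mice mean S100a8 was -0.50 on the low-fat and -2.71 on the high-fat diet, and S100a9 was 1.46 and -0.49. Ptprc went the other way, from -2.29 to -1.74. The array means of all 5 markers ran from 1.32 to 1.86 in low-fat sham, 0.90 to 1.61 in low-fat 1-kidney, 0.63 to 1.09 in high-fat sham and 0.25 to 1.18 in high-fat 1-kidney mice. Of 9 adipocyte markers 2 passed as lower in sham mice, and 1 passed in each direction in 1-kidney mice. The array means of the adipocyte markers ran from -1.45 to 0.34 in low-fat sham, -2.76 to -0.36 in low-fat 1-kidney, -2.97 to -0.69 in high-fat sham and -1.90 to 0.06 in high-fat 1-kidney mice. Of 12 liver markers, 1 passed as higher in sham mice, and 2 passed in each direction in 1-kidney mice. Of 2 measured skeletal muscle markers 1 passed as lower in sham mice. The part of these cells in the diet differences was not tested.

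The genes whose signals ran most like those of 4 members were found by Pearson's r over the 15 arrays among 16012 genes with complete values. All arrays share scale and slides, and r within groups, taken after subtraction of group means, is given in brackets. For Slc5a2, Apom (0.919 [0.873]) and Dbi (0.911 [0.944]) were among the 3 most alike. Slc5a1 was most like Edrf1 (0.929 [0.770]), Ipo5 (0.926 [0.662]) and Ncs1 (0.921 [0.668]). Pck1 was most like Gm3219 (0.969 [0.787]), Mpp2 (0.963 [0.869]) and Cox4i2 (0.963 [0.864]). G6pc was most like the cation exchanger Slc24a3 (0.815 [0.858]), Bloc1s3 (0.787 [0.683]) and the thiazide-sensitive cotransporter Slc12a3 (0.777 [0.712]). Within groups r was lower than over all arrays for every gene named with Slc5a1 and Pck1. For Slc5a2 and G6pc it was higher with Dbi and Slc24a3 and lower with the others named.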

How the data were processed

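Intensity was measured with Cy3 on 1-colour Agilent 4x44K arrays (design 026655) from 100 ng RNA. The authors deposited processed signal intensities, background-subtracted within each array per the file headers and not scaled between arrays; the software was Agilent Feature Extraction (the file headers give 10.7.3.1, the submitters' processing notes 10.7). The authors' deposited value table, an alternative here, repeats these linear intensities within 0.995 to 1.005 times, uncentred, with column medians of 56.7 to 251. Flagged and control spots were dropped, spots of a probe averaged, and log2 values centred on each array's 75th percentile. Genes needed a probe well above background on at least 3 arrays; the brightest probe was used. Names came from RefSeq accessions (assembly GRCm38.p6, names only; the array design names mm9), for 27234 of 39429 probes.

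All 15 arrays were fitted with limma 3.58.1 (lmFit, eBayes; R 4.3.3, statmod 1.5.0), 1 mean per group, in 5 two-sided comparisons; the script was first tested on simulated data. The number of arrays limits the precision. The members and lists were chosen with earlier results of these data known. Named were all members, list genes that passed (up to 4 per list and comparison) and the 3 genes most like each of 4 members, of which 1 is not reported here. Alternatives changed normalization, background, filter, probes, blocks and arrays. Replicate numbers from the labels were used to pair arrays only between high-fat sham and high-fat 1-kidney mice. There the deviations of all 3 same-number pairs correlated above 0.1 (0.12 to 0.43), and pairs 1 and 3 also share a slide. High-fat sham and 1-kidney arrays of different numbers on a shared slide correlated at -0.26 to 0.42. Pairing and slide thus cannot be told apart for pairs 1 and 3. Normexp (offset 50) used the median spot signal in place of the planned mean signal.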

Additional observations from a re-analysis of the deposited data

How the results depend on the processing

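Of the 10 genes, 2 passed for diet in sham mice and 3 in 1-kidney mice. In sham mice 0 passed with normexp, with slide as a random block, with the compared groups fitted alone or without the 3 liver-rich arrays, and 0 to 2 with an array left out. In 1-kidney mice 0 passed with slide as a random block, 1 (Pck1) with normexp or without the 3 liver-rich arrays, and 3 whichever array was left out. Over these settings Pck1 stayed between 0.55 and 0.95 in sham and 0.95 and 1.22 in 1-kidney mice, and Slc5a1 between 0.68 and 1.07 and between 0.92 and 1.29. Of 135 alternative values of the 5 passing results, 113 kept the call, 22 lost it and none changed sign. Of 1210 alternative values of the 45 others, 83 changed sign and 3 passed, all named above. For surgery on either diet and for the interaction none of the 10 genes passed under any alternative.

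Between high-fat sham and high-fat 1-kidney mice, whose same-number arrays were treated as paired, the replicate block changed no call. In the other comparisons the arrays share only a number (over all group pairs, same-number correlations of -0.15 to 0.43, 5 of 21 above 0.1). With the replicate number as a block over all arrays, 1 gene (Pck1) passed for diet in sham and 3 in 1-kidney mice.

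Over all genes, 2230 (1040 higher) and 2278 (1231 higher) passed for diet in sham and 1-kidney mice. The counts were 167 (51 higher) and 319 (120 higher) with normexp, 4850 (1224 higher) and 3596 (1292 higher) with no filter on dim probes, 14 and 26 with slide as a random block, 4474 and 4101 with slides 1 and 2 as a fixed block, 1181 and 1915 with the compared groups alone, and 665 and 333 without the liver-rich arrays. With an array left out they ran from 1210 to 2718 and from 1297 to 3306. The median difference of all genes in sham mice was -0.11 with normexp and -0.13 with no filter. Normexp on the median signal, the block on the high-fat arrays alone, leaving out the liver-rich arrays and the contrast of slides 1 and 2 were added after the data were seen. The cause of these shifts was not tested. Signal over background limits Hk2, Slc5a4a and Pck2.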
